A study of Mus musculus with 36 samples.

Results

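The 29 genes described here are transcripts that mark astrocytes or cells of the oligodendrocyte lineage, measured in single microglia sorted from mouse brain. They were taken as a named list: 16 astrocyte genes, 3 proteoglycan genes shared by astrocytes and oligodendrocyte precursors, and 10 genes of the oligodendrocyte lineage. All 29 symbols matched 1 gene each among the 26348 genes counted. The list was chosen with measured values of these samples in view, namely the difference between hippocampus and cortex and the overlap of the genes in single cells. Those values are therefore given as a description, with no test.

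The mice were males aged 6 months. APP mice carry the APPswe and PSEN1dE9 transgenes, a mutant human amyloid precursor protein and a mutant human presenilin. Wild-type (WT) mice were the controls. In the commonly used line of this name both transgenes are driven by mouse prion protein promoter elements, and the sources used here name no promoter, strain or line. Living nucleated cells with high CD11b and intermediate CD45 were sorted by flow cytometry (FACS) as CD11c-positive or CD11c-negative. CD11c, encoded by Itgax, is an integrin that marks the microglia gathered at amyloid plaques. The 6 groups were CD11c-positive APP hippocampus, CD11c-negative APP hippocampus, CD11c-negative WT hippocampus, CD11c-positive APP cortex, CD11c-negative APP cortex and CD11c-negative WT cortex. Each group had 4 animals, except CD11c-positive APP hippocampus with 3 replicates named 1-2, 2-3 and 4, of which 1-2 and 2-3 may be pools that share animal 2. There was no CD11c-positive WT group among the samples used here.

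Astrocytes take up glutamate at synapses through the transporters encoded by Slc1a2 and Slc1a3 and turn it into glutamine with the synthetase encoded by Glul. Oligodendrocytes wrap axons in myelin, whose proteins are encoded by Mbp, Mobp, Mag, Mog and Cnp, and they arise from precursors marked by Pdgfra. Microglia are the resident phagocytes of the brain. They contact synapses and take up myelin and cell debris, and a sorted microglial fraction can also hold RNA of other brain cells.

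Both glutamate transporter genes are shown with the bases upstream of their transcription starts, since Slc1a2 and Slc1a3 had different patterns over the regions. The sequences are from RefSeq on GRCm38.p6, 5′ to 3′ on the strand of the gene, 250 bases each, at chr2:102706188-102706437 (+ strand) for Slc1a2 and chr15:8710808-8711057 (- strand) for Slc1a3. Capitals mark a match to TATAAA on either strand.
Slc1a2: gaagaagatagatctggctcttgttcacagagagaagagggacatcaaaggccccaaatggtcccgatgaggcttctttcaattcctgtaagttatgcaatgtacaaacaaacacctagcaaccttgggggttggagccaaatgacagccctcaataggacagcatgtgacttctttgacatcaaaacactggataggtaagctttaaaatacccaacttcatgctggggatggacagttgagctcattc
Slc1a3: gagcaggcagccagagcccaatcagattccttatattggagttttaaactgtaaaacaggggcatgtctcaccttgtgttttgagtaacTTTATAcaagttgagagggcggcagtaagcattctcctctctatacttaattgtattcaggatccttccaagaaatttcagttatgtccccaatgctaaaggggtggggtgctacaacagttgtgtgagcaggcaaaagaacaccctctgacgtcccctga
The Slc1a3 window holds 1 match to TATAAA, on the reverse strand, and the Slc1a2 window holds 0. The same letters occur in the windows of 12.37% of 32851 RefSeq promoters. Neither window holds AACAAT, the core recognised by SOX factors, found in 9.424% of all windows, or TTGGCA, the half-site of nuclear factor I, found in 12.28%. Of the 29 members, 20 had a RefSeq promoter, and AACAAT was found in that of Olig2, TTGGCA in those of Aldoc and Cnp, and TATAAA in those of Ndrg2, Slc1a3 and Olig2. Slc1a2 starts elsewhere in GENCODE vM21, where the gene spans chr2:102658659-102790784, so its window lies within that span.

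The 36 libraries held 2660 cell barcodes, of which 2657 were kept. They used 83 distinct barcode sequences, 82 of them present in 2 or more libraries, so a barcode names a cell only together with its library. Counts were summed per animal, region and gate into 23 replicates, whose totals ranged from 1037425 to 4484427. Levels are given as CPM, the counts scaled to the same total in every replicate, and p-values measure the spread between these replicates. The genotype tag of 17 of 36 libraries differed from the genotype in the title, and the titles were used. Each title holds a number after the gate, shared by 1 to 4 libraries, which none of the sources used here explains, and both gates of an APP cortex had the same one. It differed wholly between regions, between genotypes and between the gates of hippocampus, so in those comparisons it and the condition cannot be told apart. In replicate sums, fewer cells holding a transcript and less of it per cell cannot be told apart, so the share of cells is given as well.

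Nearly all members were at or close to 0 in hippocampal microglia and were counted in every cortical group. The 27 members other than Glul and Slc1a3 summed to 139.5 ± 11.3 CPM in CD11c-positive APP hippocampus (SD, n = 3), 71.5 ± 74.6 CPM in CD11c-negative APP hippocampus and 48.8 ± 50.9 CPM in WT hippocampus (n = 4 each). They summed to 3455 ± 1270 CPM in CD11c-positive APP cortex, 1307 ± 647 CPM in CD11c-negative cells of APP cortex and 1868 ± 1265 CPM in WT cortex (n = 4 each). Every hippocampal replicate, at 0 to 180.6 CPM, lay below every cortical one, at 577 to 4647 CPM. Glul and Slc1a3 did not follow this split.

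**Figure D1:**
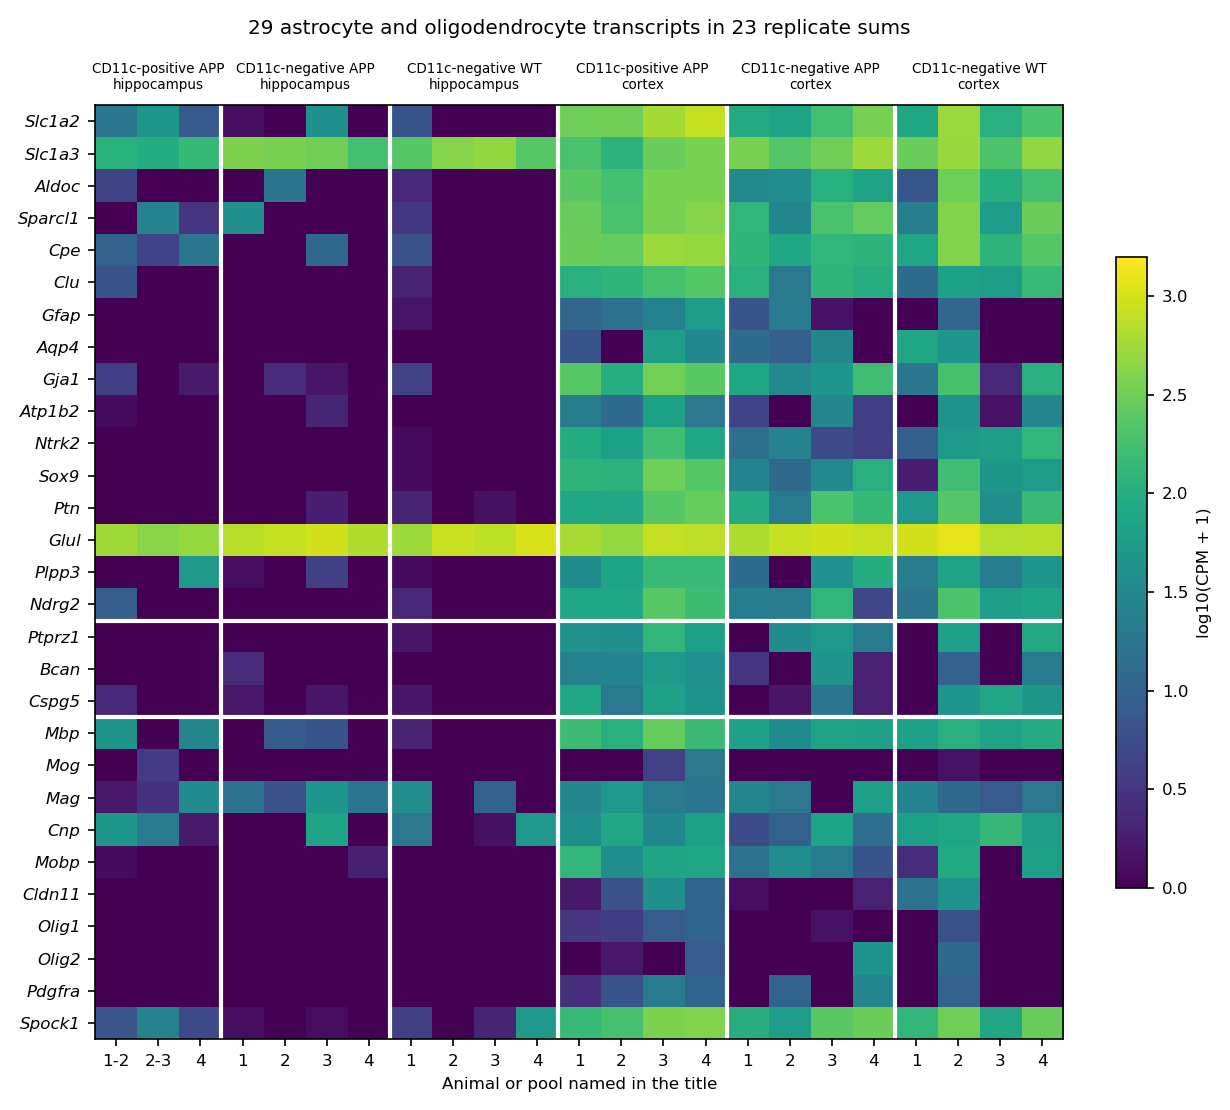
Level of each of the 29 members (rows) in each of 23 replicates (columns, named by animal or pool and grouped by region, genotype and gate), coloured by log10(CPM + 1). White lines separate the astrocyte, shared and oligodendrocyte lineage members. Slc1a3 and Glul are bright in all columns, and most other members are dark in the hippocampal columns.

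Slc1a2 encodes the main glutamate transporter of astrocytes. Hippocampal replicates had 17.3, 48.6 and 7.02 CPM of Slc1a2 in CD11c-positive APP cells, 0.296, 0, 39.4 and 0 CPM in APP CD11c-negative cells and 5.55, 0, 0 and 0 CPM in WT cells. Cortical replicates had 307, 323, 583 and 817 CPM in CD11c-positive APP cells, 91.2, 71.3, 175 and 347 CPM in APP CD11c-negative cells and 80.4, 522, 103 and 197 CPM in WT cells. No hippocampal replicate reached any cortical one. The log2 fold change of hippocampus over cortex was -6.92 in WT cells, -4.22 in CD11c-negative APP cells and -4.41 in CD11c-positive APP cells. A few cells carried the hippocampal counts: 1 cell held 62.5% of the Slc1a2 counts of CD11c-positive APP hippocampus, against 4.78% in CD11c-positive APP cortex.

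Slc1a3 encodes the other astrocytic glutamate transporter and was present in both regions. Slc1a3 levels in hippocampus were 111, 93.5 and 138 CPM in CD11c-positive APP cells, 384, 363, 322 and 175 CPM in APP CD11c-negative cells and 226, 415, 475 and 231 CPM in WT cells. Slc1a3 levels in cortex were 191, 114, 291 and 358 CPM in CD11c-positive APP cells, 357, 222, 322 and 536 CPM in APP CD11c-negative cells and 291, 509.7, 203 and 462 CPM in WT cells. The regions overlapped in each of the 3 pairs of groups. Slc1a3 was found in 20.2% to 28.0% of cells in every group, and no cell held more than 9.0% of a group's Slc1a3 counts.

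Glul encodes glutamine synthetase, which converts glutamate to glutamine. Glul levels in hippocampus were 553, 428 and 495 CPM in CD11c-positive APP cells, 722, 829.8, 957 and 665 CPM in APP CD11c-negative cells and 532, 863, 786 and 1009 CPM in WT cells. Glul levels in cortex were 609, 489, 808 and 754 CPM in CD11c-positive APP cells, 635, 838, 943 and 832 CPM in APP CD11c-negative cells and 947, 1162, 695 and 740.0 CPM in WT cells. The regions overlapped here too. A count of Glul was found in 56.4% to 67.7% of cells in every group.

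Aldoc encodes the brain form of the glycolytic enzyme aldolase. Hippocampal counts of Aldoc were above 0 in 1 replicate of each group, at 3.59 CPM in CD11c-positive APP pool 1-2, 16.7 CPM in CD11c-negative APP animal 2 and 1.26 CPM in WT animal 1. Aldoc had 239.9, 176, 361 and 356 CPM in CD11c-positive APP cortex, 32.7, 36.5, 106 and 69.4 CPM in CD11c-negative cells of APP cortex and 6.20, 314, 97.6 and 172 CPM in WT cortex. Among the cortical groups, CD11c-positive APP replicates were all above CD11c-negative APP replicates, and WT replicates were spread over both.

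**Figure D2:**
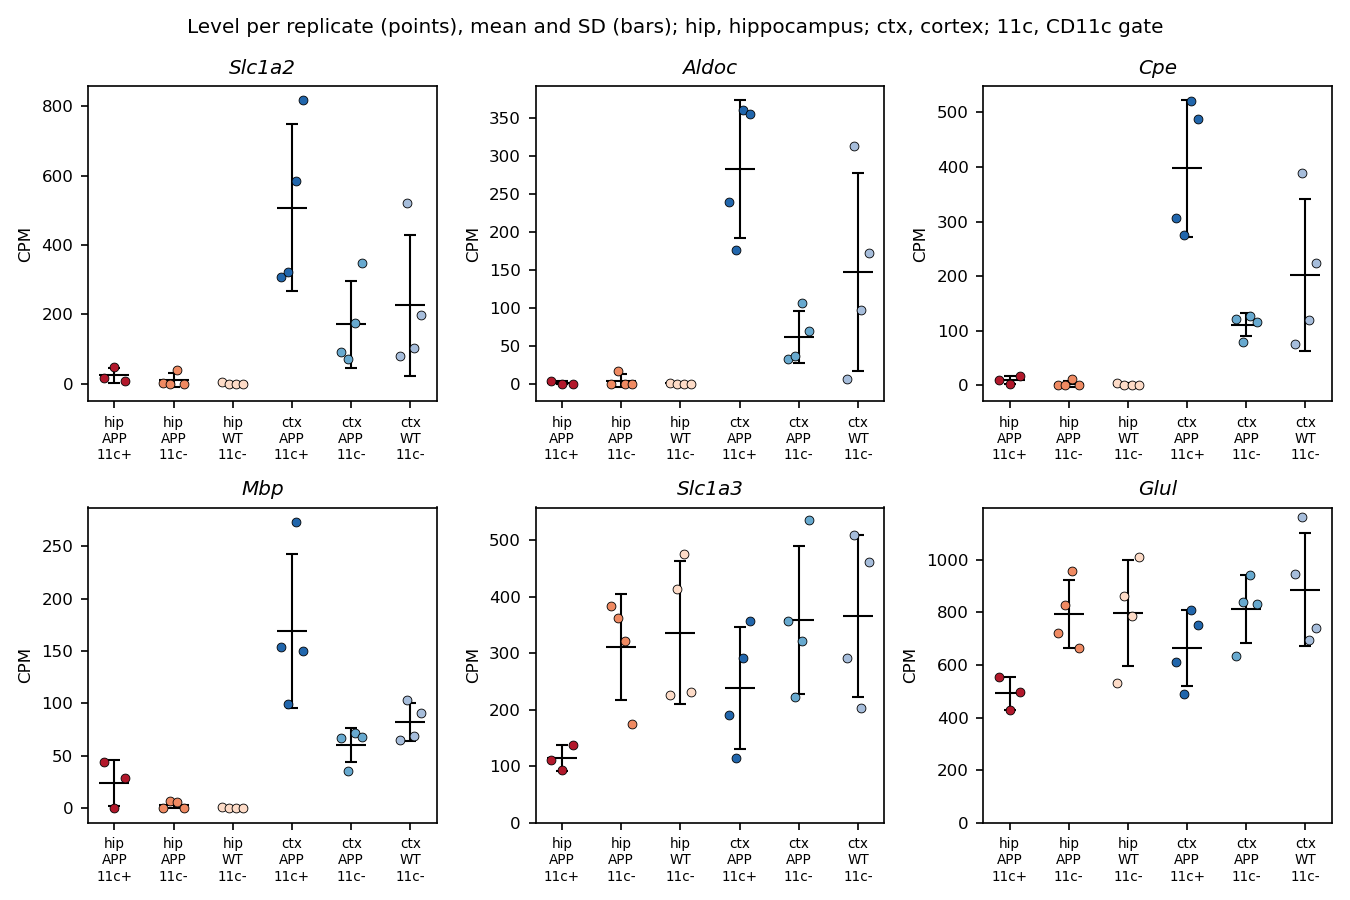
CPM of 6 members per replicate (points), with the mean (line) and SD (bars), in hippocampus (hip) and cortex (ctx) of APP and WT mice in the CD11c-positive (11c+) and CD11c-negative (11c-) gates. Slc1a2, Aldoc, Cpe and Mbp lie near 0 in the hippocampal groups, and replicates of Slc1a3 and Glul overlap between the regions. In CD11c-positive APP cells mean Slc1a3 was 114 CPM in hippocampus against 238 CPM in cortex. Mean Glul there was 492 against 665 CPM.

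Of the secreted proteins, Sparcl1 encodes hevin, a matrix protein that promotes synapse formation. Hippocampal counts of Sparcl1 gave 0, 24.9 and 2.11 CPM in CD11c-positive APP cells, 39.7, 0, 0 and 0 CPM in APP CD11c-negative cells and 2.27, 0, 0 and 0 CPM in WT cells. Sparcl1 had 281, 191, 358 and 419 CPM in CD11c-positive APP cortex, 127, 28.8, 188 and 272 CPM in CD11c-negative cells of APP cortex and 22.4, 389, 57.8 and 304 CPM in WT cortex. The hippocampal 39.7 CPM in APP animal 1 exceeded the lowest cortical values, and 99.2% of that group's Sparcl1 counts came from 1 cell. Cpe encodes carboxypeptidase E, which trims prohormones and neuropeptides. Hippocampal counts of Cpe gave 8.99, 3.43 and 16.9 CPM in CD11c-positive APP cells, 10.9 CPM in CD11c-negative APP animal 3, 5.29 CPM in WT animal 1 and 0 in all other replicates. Cpe had 306, 275, 521 and 488 CPM in CD11c-positive APP cortex, 121, 79.9, 127 and 116 CPM in CD11c-negative cells of APP cortex and 76.3, 389, 119 and 224 CPM in WT cortex. No hippocampal Cpe value overlapped a cortical one.

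Clu encodes clusterin, an extracellular chaperone also called apolipoprotein J. Hippocampal counts of Clu were 0 except for 5.84 CPM in CD11c-positive APP pool 1-2 and 1.01 CPM in WT animal 1. Clu had 101, 125, 182 and 226 CPM in CD11c-positive APP cortex, 105, 17.9, 124 and 97.4 CPM in CD11c-negative cells of APP cortex and 12.7, 66.1, 62.1 and 142 CPM in WT cortex. In CD11c-negative APP microglia the hippocampal level of Clu was at least 229-fold lower, with 3 counts over the group taken as the floor of a group at 0. Ptn encodes pleiotrophin, a heparin-binding growth factor. Hippocampal counts of Ptn were 0 except for 0.839 CPM in CD11c-negative APP animal 3 and 1.01 and 0.392 CPM in WT animals 1 and 3. Ptn had 79.2, 79.9, 226 and 283 CPM in CD11c-positive APP cortex, 95.5, 19.7, 193 and 139.8 CPM in CD11c-negative cells of APP cortex and 49.9, 218, 37.2 and 148 CPM in WT cortex. The cortical groups overlapped for both genes.

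Among membrane proteins, Gja1 encodes the connexin that joins astrocytes by gap junctions. Hippocampal counts of Gja1 gave 2.92, 0 and 0.702 CPM in CD11c-positive APP cells, 0, 1.52, 0.559 and 0 CPM in APP CD11c-negative cells and 3.28, 0, 0 and 0 CPM in WT cells. Gja1 had 232, 96.7, 333 and 240.2 CPM in CD11c-positive APP cortex, 78.7, 33.4, 47.4 and 163 CPM in CD11c-negative cells of APP cortex and 17, 186, 1.28 and 106 CPM in WT cortex. WT animal 3 was the 1 cortical replicate within the hippocampal range. Ntrk2 encodes TrkB, the receptor of brain-derived neurotrophic factor. Hippocampal counts of Ntrk2 were 0 in all replicates except WT animal 1, at 0.252 CPM. Ntrk2 had 95.2, 64.3, 164 and 82.2 CPM in CD11c-positive APP cortex, 14, 25.4, 4.47 and 2.89 CPM in CD11c-negative cells of APP cortex and 8.36, 51.2, 59.9 and 126 CPM in WT cortex. The level in CD11c-positive APP hippocampus was at least 306-fold lower than in CD11c-positive APP cortex.

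Plpp3 encodes a lipid phosphate phosphatase of the cell surface. Hippocampal counts of Plpp3 gave 0, 0 and 51.3 CPM in CD11c-positive APP cells, 0.296, 0, 3.08 and 0 CPM in APP CD11c-negative cells and 0.252, 0, 0 and 0 CPM in WT cells. Plpp3 had 34.6, 67.9, 144 and 148 CPM in CD11c-positive APP cortex, 12.5, 0, 40.7 and 95.4 CPM in CD11c-negative cells of APP cortex and 21.0, 70.9, 21.0 and 46.5 CPM in WT cortex. The 51.3 CPM in hippocampal animal 4 came from 1 cell. Aqp4, the water channel of astrocyte endfeet, had 0 counts in all 11 hippocampal replicates and 0 to 75.3 CPM in cortical ones, and Atp1b2, which encodes a subunit of the sodium pump, had at most 1.12 CPM in hippocampus and 0 to 64.2 CPM in cortex.

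Sox9 encodes a transcription factor of the astrocyte lineage. Hippocampal counts of Sox9 were 0 in all replicates except WT animal 1, at 0.252 CPM. Sox9 had 118, 113, 309 and 225 CPM in CD11c-positive APP cortex, 27.1, 11.8, 32.2 and 102 CPM in CD11c-negative cells of APP cortex and 0.809, 163, 48.4 and 55.4 CPM in WT cortex. The level in CD11c-positive APP hippocampus was at least 573-fold lower than in CD11c-positive APP cortex. Ndrg2 encodes a cytosolic protein rich in astrocytes. Hippocampal counts of Ndrg2 were 0 except for 7.86 CPM in CD11c-positive APP pool 1-2 and 1.26 CPM in WT animal 1. Ndrg2 had 79.2, 82.8, 235 and 158 CPM in CD11c-positive APP cortex, 22.9, 21.1, 126 and 3.86 CPM in CD11c-negative cells of APP cortex and 16.2, 203, 61.2 and 68.8 CPM in WT cortex. Gfap, which encodes the intermediate filament protein of astrocytes, had 0 to 0.504 CPM in hippocampal replicates and 0 to 55.3 CPM in cortical ones.

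The shared proteoglycans are made by astrocytes and by oligodendrocyte precursors. Ptprz1 encodes a receptor phosphatase that binds pleiotrophin. Hippocampal counts of Ptprz1 were 0 except for 0.504 CPM in WT animal 1. Ptprz1 had 40.6, 38.5, 127 and 63.2 CPM in CD11c-positive APP cortex, 0, 35.0, 50.5 and 19.3 CPM in CD11c-negative cells of APP cortex and 0, 63.4, 0 and 86.6 CPM in WT cortex. Cspg5 encodes neuroglycan C. Hippocampal counts of Cspg5 gave 1.35, 0 and 0 CPM in CD11c-positive APP cells, 0.592, 0, 0.559 and 0 CPM in APP CD11c-negative cells and 0.504, 0, 0 and 0 CPM in WT cells. Cspg5 had 82.5, 17.9, 67 and 42.1 CPM in CD11c-positive APP cortex, 0, 0.454, 17 and 0.964 CPM in CD11c-negative cells of APP cortex and 0, 46.8, 74.9 and 47.8 CPM in WT cortex. CD11c-positive APP cortex was the 1 group in which Cspg5 was above 10 CPM in all replicates. Bcan, which encodes brevican of the matrix around neurons, had at most 1.48 CPM in hippocampus and 0 to 50.6 CPM in cortex.

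Mbp encodes myelin basic protein, a main protein of compact myelin. Hippocampal counts of Mbp gave 43.8, 0 and 28.1 CPM in CD11c-positive APP cells, 0, 6.82, 5.59 and 0 CPM in APP CD11c-negative cells and 1.01, 0, 0 and 0 CPM in WT cells. Mbp had 154, 99, 273 and 150.2 CPM in CD11c-positive APP cortex, 66.5, 35.2, 71.1 and 67.5 CPM in CD11c-negative cells of APP cortex and 65.0, 103, 68.5 and 91.1 CPM in WT cortex. Within each pair of groups the regions did not overlap. Mobp encodes another myelin basic protein, specific to oligodendrocytes. Hippocampal counts of Mobp were 0 except for 0.225 CPM in CD11c-positive APP pool 1-2 and 0.887 CPM in CD11c-negative APP animal 4. Mobp had 129, 38.5, 72.8 and 76.4 CPM in CD11c-positive APP cortex, 14.6, 36.1, 19.2 and 5.78 CPM in CD11c-negative cells of APP cortex and 1.62, 89.2, 0 and 63.0 CPM in WT cortex. The highest Mobp value was in CD11c-positive APP cortex. WT cortex held the lowest cortical value, and its 89.2 and 63.0 CPM were above all of the CD11c-negative APP values.

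For Cnp and Mag the regions overlapped in both gates of APP mice. Cnp encodes the cyclic nucleotide phosphodiesterase of myelin. Hippocampal counts of Cnp gave 48.5, 19.3 and 0.702 CPM in CD11c-positive APP cells, 0, 0, 71.6 and 0 CPM in APP CD11c-negative cells and 17.6, 0, 0.392 and 50.5 CPM in WT cells. Cnp had 38.1, 79.3, 30.4 and 63.2 CPM in CD11c-positive APP cortex, 4.58, 8.85, 70.2 and 13.5 CPM in CD11c-negative cells of APP cortex and 63.7, 78.3, 134 and 55.4 CPM in WT cortex. In WT mice the regions did not overlap. Exons of Cnp overlap those of Dnajc7 on the opposite strand, and the use of strand in counting was not stated in the sources used here, so reads of both genes cannot be told apart. Mag, an adhesion protein of the myelin sheath, had 0 to 46.7 CPM in hippocampal replicates and 0 to 63.6 CPM in cortical ones. It was above 0 in 9 hippocampal replicates and 11 cortical ones.

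Mog, a glycoprotein of the outer myelin surface, reached 17.5 CPM in 1 replicate and did not pass the filter on low counts. Cldn11, the tight junction protein of myelin, had 0 counts in hippocampus and up to 42.0 CPM in cortex. Olig1 and Olig2, the transcription factors of the lineage, and Pdgfra, the growth factor receptor of oligodendrocyte precursors, also had 0 counts in all hippocampal replicates. In cortex they reached 9.89, 42.4 and 27.9 CPM, with all counts of Olig2 in CD11c-negative APP cortex from 1 cell. In CD11c-positive APP hippocampus 0 counts allow up to 0.330 CPM, and 0 of 362 cells allows a share of up to 1.01% (exact binomial interval). Such limits cover counting error only.

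Spock1 encodes testican, a secreted proteoglycan known also from neurons. Hippocampal counts of Spock1 gave 6.07, 25.9 and 4.21 CPM in CD11c-positive APP cells, 0.296, 0, 0.280 and 0 CPM in APP CD11c-negative cells and 3.03, 0, 1.18 and 51.6 CPM in WT cells. Spock1 had 148, 184, 373 and 388 CPM in CD11c-positive APP cortex, 97.0, 59.5, 239 and 302 CPM in CD11c-negative cells of APP cortex and 130.0, 323, 81.8 and 282 CPM in WT cortex. Hippocampal WT animal 4 stood apart from the other hippocampal replicates, and 86.8% of that group's Spock1 counts came from 1 cell.

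Over the 28 members that passed the filter, 13 were lower in WT hippocampus than in WT cortex with no overlap of replicates, as were 4.39% of all 14892 genes tested. The count was 12 in CD11c-negative APP microglia, beside 4% of all genes, and 21 in CD11c-positive APP microglia, beside 9.37%. Of the members, 10 were lower without overlap in all 3 pairs: Slc1a2, Aldoc, Cpe, Clu, Ntrk2, Sox9, Ptn, Ndrg2, Mbp and Spock1. The median log2 fold change of the 28 members was -7.41 in WT mice, -5.37 in CD11c-negative and -6.86 in CD11c-positive APP microglia, beside -0.22, -0.10 and -0.15 over all genes. Since the region difference was used to choose the genes, nothing is read from these counts and no test of it is given for them.

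Between the gates of APP cortex, most members had higher levels in CD11c-positive cells. Slc1a2 was higher in the CD11c-positive gate in all 4 animals, at 508 ± 242 CPM against 171 ± 126 CPM (SD, n = 4 each), and likewise Aldoc at 283 ± 90.6 against 61.2 ± 34.1 CPM, Cpe at 397 ± 125 against 111 ± 21.1 CPM, and Sox9 at 192 ± 93.9 against 43.3 ± 40.2 CPM. Of the 28 members, 18 were higher in CD11c-positive cells of every animal, beside 16.2% of all genes. For 8 of them, Aldoc, Cpe, Ntrk2, Sox9, Cspg5, Mbp, Mobp and Olig1, the gates did not overlap, beside 8.58% of all genes, and 0 members were lower without overlap. Olig1 had 84 counts in CD11c-positive and 1 in CD11c-negative APP cortex. It passed the filter on low counts only with the group where it was high, so nothing is read from its difference between gates. The median log2 fold change of the members was 1.51, beside 0.19 over all genes.

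No member passed the test between these gates. By the quasi-likelihood test of edgeR 0 of 28 members had a p under 0.05 after Benjamini-Hochberg adjustment over all genes, beside 1.23% of all genes. At an unadjusted p under 0.05 there were 3, Ntrk2, Olig1 and Cldn11, beside 12.1% of all genes, and the limit given for Olig1 holds here too. DESeq2 called 1 of 26 members, Ntrk2, beside 4.43% of all genes to which it gave an adjusted p. Ntrk2 had a log2 fold change of 3.10 (SE 1.09, edgeR adjusted p = 0.245). The values were 1.596 for Slc1a2 (SE 1.16, edgeR adjusted p = 0.725), 2.24 for Aldoc (SE 1.27, adjusted p = 0.532), 1.87 for Cpe (SE 1.03, adjusted p = 0.517), 2.16 for Sox9 (SE 1.04, adjusted p = 0.418) and 1.51 for Mbp (SE 1.12, adjusted p = 0.735). With the animal as a block, in a fit of these 2 groups alone, 3 of 25 members were called, beside 2.47% of all genes in that fit: Slc1a2 at 1.67 (edgeR adjusted p = 0.00823), Aldoc at 2.26 (adjusted p = 0.0104) and Cpe at 1.75 (adjusted p = 0.0098). The same 2 groups without the block called Aldoc and Cpe, beside 3.96% of all genes.

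**Figure D3:**
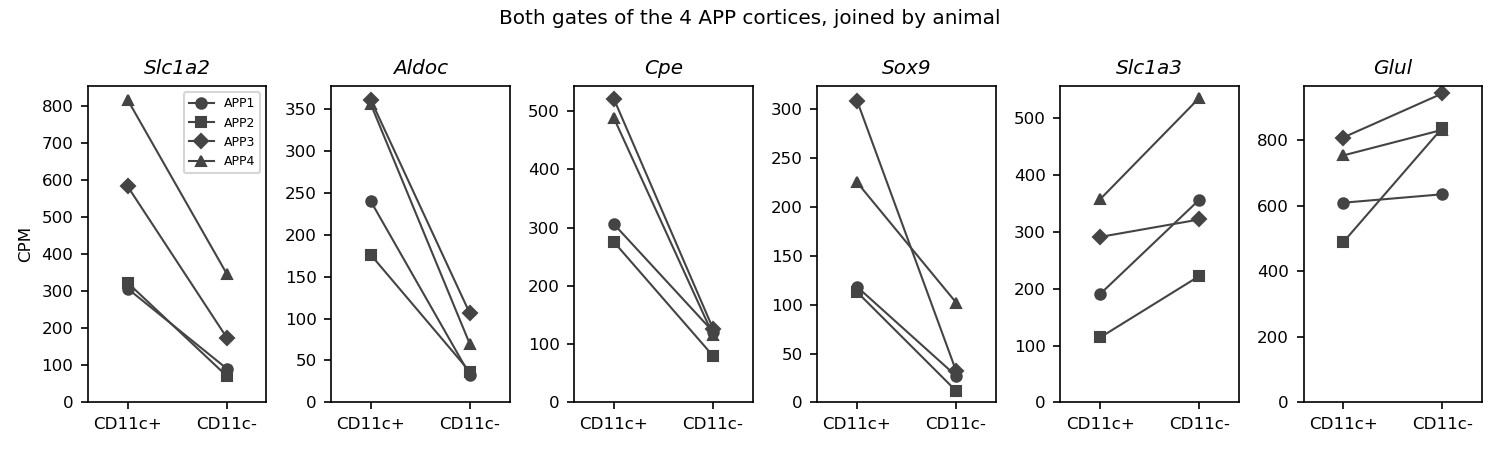
CPM of 6 members in the CD11c-positive (left) and CD11c-negative (right) gate of the 4 APP cortices, each animal joined by a line. Slc1a2, Aldoc, Cpe and Sox9 are higher in the CD11c-positive gate of all 4 animals, and Slc1a3 and Glul are lower there.

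Slc1a3 and Glul had the opposite sign in these cortices. Slc1a3 was at 238 ± 108 CPM in CD11c-positive cells, against 359 ± 131 CPM in CD11c-negative cells (log2 fold change -0.57, SE 0.39, edgeR adjusted p = 0.686). Glul was at 665 ± 144 CPM in CD11c-positive cells, against 812 ± 128 CPM in CD11c-negative cells (log2 fold change -0.27, SE 0.21, edgeR adjusted p = 0.782). Both were lower in the CD11c-positive gate in 4 of 4 animals, and neither passed the test. A count of Slc1a3 was found in 20.4% of cells in the CD11c-positive gate against 28.0% in the CD11c-negative gate. For Glul the share had the opposite sign to the level, at 64.1% in the CD11c-positive gate against 57.0% in the CD11c-negative gate.

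In APP hippocampus the members gave no call between the gates either, with 0 of 28 past an adjusted p of 0.05 by edgeR, beside 0.551% of all genes. Of the 28, Gfap, Aqp4, Ntrk2, Sox9, Ptprz1, Cldn11, Olig1, Olig2 and Pdgfra had 0 counts in both gates. Those members passed the filter through other groups and could not be called here. At an unadjusted p under 0.05 there were 7, beside 10.9% of all genes, and DESeq2 called 2 of 26 members, Slc1a3 and Spock1, beside 3.83%. Slc1a3 was at 114 ± 22.6 CPM in CD11c-positive cells (n = 3) and 311 ± 94.4 CPM in CD11c-negative cells (n = 4; log2 fold change -1.30, SE 0.44, edgeR adjusted p = 0.248). DESeq2 gave Slc1a3 a log2 fold change of -1.48 and an adjusted p of 0.0217. Glul was at 492 ± 62.3 CPM in CD11c-positive cells, against 793 ± 129 CPM in CD11c-negative cells (log2 fold change -0.54, SE 0.23, edgeR adjusted p = 0.402). Spock1 was at 12.05 ± 12.01 CPM in CD11c-positive cells, against 0.144 ± 0.166 CPM in CD11c-negative cells (log2 fold change 5.82, SE 1.39, edgeR adjusted p = 0.0519). Spock1 was called by DESeq2 (adjusted p = 0.00136) and without the filter on low counts (edgeR adjusted p = 0.00165). The difference between the gate effects of cortex and hippocampus was tested as an interaction, and 0 members and 0% of all genes were called by edgeR. At an unadjusted p under 0.05 there were 2 members, Clu and Spock1, beside 7.49% of all genes, and DESeq2 called 0 members, beside 1.71%.

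Between APP and WT mice, cortical CD11c-negative cells gave 0 called members by edgeR, where 0% of all genes were called, and 0 by DESeq2, which called 1.7%. At an unadjusted p under 0.05 there were 2, Ntrk2 and Cldn11, beside 9.09% of all genes. Ntrk2 was at 11.7 ± 10.4 CPM in APP and 61.4 ± 48.7 CPM in WT cortex (log2 fold change -2.25, SE 1.05, edgeR adjusted p = 0.537). Slc1a2 was at 171 ± 126 CPM in APP and 225 ± 204 CPM in WT cortex, with a log2 fold change of -0.32 (SE 1.13, edgeR adjusted p = 1). Without WT animal 2, the highest WT replicate, that value was 0.54.

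In hippocampal CD11c-negative cells 1 of 28 members was called by edgeR, beside 1.52% of all genes, and the same member by DESeq2, beside 8.01%. Of the 28, Aqp4, Cldn11, Olig1, Olig2 and Pdgfra had 0 counts in both of these groups and could not be called. At an unadjusted p under 0.05 there were 3, beside 15.8% of all genes. Spock1 fell in APP hippocampus, at 0.144 ± 0.166 CPM against 13.9 ± 25.1 CPM in WT hippocampus (log2 fold change -5.94, SE 1.36, edgeR adjusted p = 0.0197). The replicates overlapped, and the WT mean rests on animal 4. Without WT animal 4 the value was -3.02 (edgeR adjusted p = 0.226), and the call was also lost without each of the 4 APP replicates (adjusted p of 0.0531 to 0.0669). With genotype taken from the tag, which differs from the title in 17 of 36 libraries, Spock1 was at -6.71 (edgeR adjusted p = 0.636), and 0 members and 0 of all genes were called in hippocampus. Glul was at 793 ± 129 CPM in APP and 797 ± 200 CPM in WT hippocampus (log2 fold change -0.24, SE 0.21, edgeR adjusted p = 0.732). A count of Glul was found in 59.9% of APP and 56.4% of WT hippocampal cells. The interaction of genotype and region called 0 members by edgeR, beside 1.01% of all genes. At an unadjusted p under 0.05 there was 1, Spock1, beside 13.1% of all genes, and DESeq2 called it too, beside 5.85%. With the animal as a block, an alternative chosen after the data were seen, 0 of 21 members and 0.792% of all genes were called by edgeR, against 0 members and 0.994% in the same 4 groups without the block.

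The share of cells with a count was taken beside the levels. A count of Slc1a2 was found in 3.87%, 0.939% and 1.598% of cells in CD11c-positive APP, CD11c-negative APP and WT hippocampus. In cortex the shares were 30.8% of CD11c-positive APP cells (95% exact binomial interval 27.1% to 34.8%), 12.1% of CD11c-negative APP cells (9.26% to 15.48%) and 13.6% of WT cells (10.3% to 17.4%), intervals that cover counting error only. After every cell was thinned to 5000 counts, which left out 73 cells, the cortical shares were 22.1%, 6.82% and 8.07%. All sorted cells are microglia by gate, so no cell type of these files can serve as one that lacks the transcript.

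**Figure D4:**
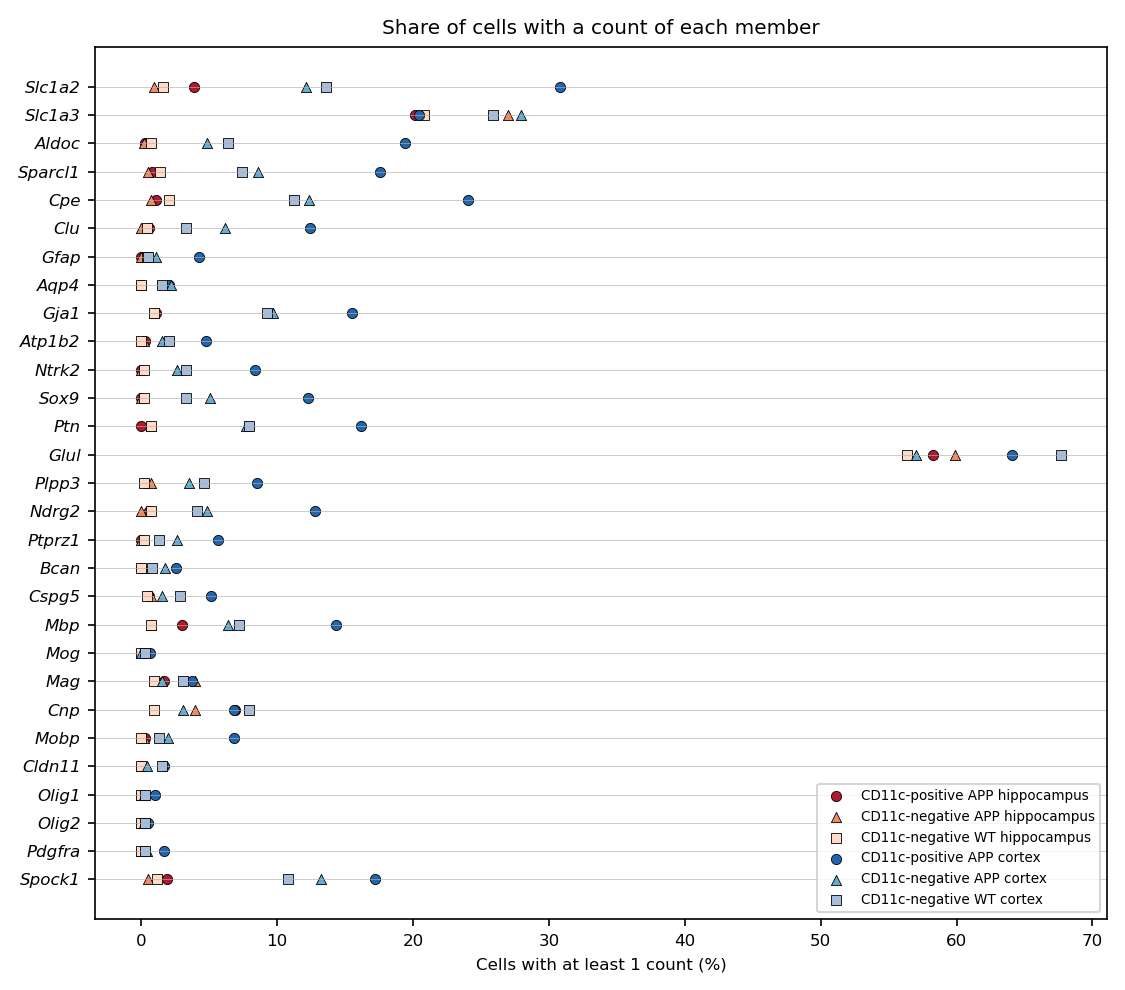
Share of cells (x axis, percent) with at least 1 count of each member (rows) in the 6 groups (symbols). Cortical groups lie to the right of hippocampal ones for most members, and Glul, at 56.4% to 67.7%, and Slc1a3, at 20.2% to 28.0%, have all groups close together.

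At least 1 of the 27 members other than Glul and Slc1a3 was found in 20.7%, 13.4% and 7.08% of cells in CD11c-positive APP, CD11c-negative APP and WT hippocampus. The shares were 62.5% in CD11c-positive APP cortex, 40.7% in CD11c-negative APP cortex and 46.2% in WT cortex. Thinned to 5000 counts a cell, they were 11.9%, 7.09% and 4.22% in hippocampus and 43.8%, 24.1% and 27.1% in cortex. By animal the unthinned shares ran from 48.7% to 69.9% in CD11c-positive APP cortex, 26.7% to 65.8% in CD11c-negative APP cortex and 30.3% to 70.9% in WT cortex, so the cortical groups overlapped.

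Astrocyte and oligodendrocyte transcripts were found together. Of the 372 cortical cells with an oligodendrocyte lineage member, 66.7% also held an astrocyte member, against 33.1% of the 1059 cortical cells without one. Spock1, known also from neurons, counts as an oligodendrocyte lineage member here. It was found in 203 cortical cells, against 141 for Mbp, and the share without Spock1 was not computed. With at least 2 members of a class asked for, 105 of 114 cortical cells that held the oligodendrocyte class also held the astrocyte class. In hippocampus 11 of 103 cells with an oligodendrocyte member held an astrocyte member, or 10.7%, against 4.81% of the 1123 cells without one. By group the shares were 8.16% against 7.67% in CD11c-positive APP and 7.69% against 3.88% in CD11c-negative APP hippocampus. In WT hippocampus they were 26.7%, or 4 of 15 cells, against 3.55%. Slc1a2 itself was found in 70.2% of cortical cells with Aldoc and 13.9% of those without, in 66.0% of cells with Mbp and 15.2% of those without, and in 26.7% of cells with Glul and 9.21% of those without. Co-detection rises with the depth of a cell, and cells of 1 library are not replicates, so these are descriptions.

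A small set of cortical cells held most of the transcripts. Of 1431 cortical cells, 131 held 6 or more of the 27 members and 84.2% of their counts, while 699 cells held 0. Cells with 6 or more made up 15.3% of CD11c-positive APP, 5.07% of CD11c-negative APP and 4.62% of WT cortex, against 3 of 1226 hippocampal cells. All 12 cortical replicates had such cells. The cell with the most held 22 of the 27 members. Thinned to 5000 counts, such cells were 13.3%, 3.86% and 4.43% of the cortical groups.

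The 131 cells differed from the 699 cortical cells with 0 members in more than these genes. They had a median of 38710 counts and 1677 genes, against 17487 counts and 697 genes. By replicate they numbered from 1 in WT animal 3 to 32 in CD11c-positive APP animal 3, with 3 each in WT animal 1 and CD11c-negative APP animal 2. Values of some of the 12 replicates thus rest on very few cells. The summed level of 17 microglial genes in the 131 cells was 9244 CPM, against 26078 CPM, and was lower in 12 of 12 replicates. Their summed level of 13 neuronal genes was 3337 CPM, against 540 CPM, and that of 23 further astrocyte genes was 2834 CPM, against 40.6 CPM. Both were higher in 12 of 12 replicates. Their median mitochondrial share was 3.61%, against 1.08%. Slc1a3 was at 602 CPM in the 131 cells, against 191 CPM, and was higher in 10 of 12 replicates. Glul was at 1009 CPM, against 716 CPM, higher in 9 of 12 replicates, and within CD11c-negative APP cortex at 839.5 CPM, against 817 CPM. Cells with more counts can show more members, and the part of depth in these values was not tested.

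**Figure D5:**
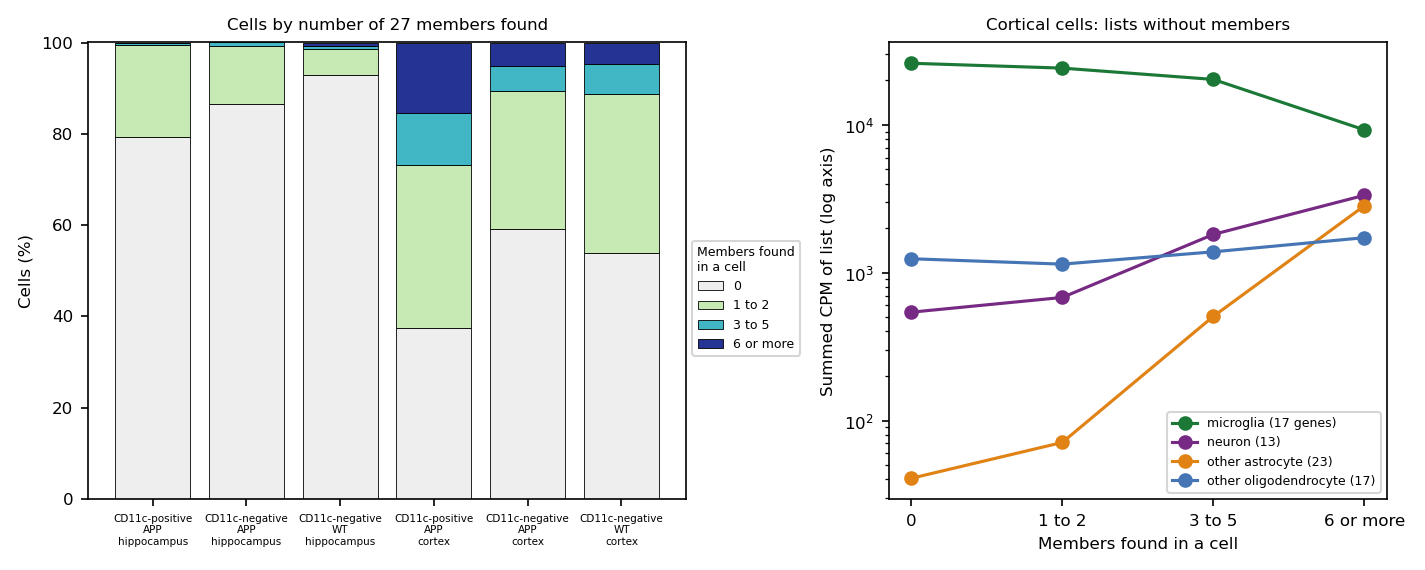
Left, share of cells (percent) in each group by how many of the 27 members other than Glul and Slc1a3 were found in a cell. Right, summed CPM (log axis) of microglial, neuronal, other astrocyte and other oligodendrocyte genes in cortical cells by number of members found. The microglial sum is 26078 CPM at 0 members and 9244 CPM at 6 or more, and the neuronal and other astrocyte sums are higher at 6 or more.

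Genes outside the list were looked at for the same samples. The 13 neuronal genes, all above the filter, summed to 127 ± 81.6 CPM in CD11c-positive APP, 71.3 ± 47.5 CPM in CD11c-negative APP and 58.5 ± 78.1 CPM in WT hippocampus. In cortex they summed to 1403 ± 308 CPM in CD11c-positive APP, 1058 ± 221 CPM in CD11c-negative APP and 1395 ± 662 CPM in WT cells. Neuronal transcripts thus moved with region as the members did, and their part in the result was not tested. Between the gates of APP cortex 0 of 13 passed the test, with a median log2 fold change of 0.90, beside 0.19 over all genes.

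The 23 further astrocyte genes ranged from 0 to 179 CPM summed in hippocampal replicates and from 101 to 1529 CPM in cortical ones. Ttyh1 had the highest mean of them. Of the 22 tested, 0 passed in any gate or genotype comparison. All 22 had a positive log2 fold change for the gate in cortex, beside 8221 of all 14892 genes. Their median was 1.65, beside 0.19 over all genes. The 17 further oligodendrocyte genes in the table summed to 427 to 1394 CPM in hippocampus and 864 to 2118 CPM in cortex, with Trf, an iron carrier, at 674 to 1276 CPM in every group. Of the 13 tested, 0 passed in a gate or genotype comparison. The 7 further precursor genes in the table, led by Cspg4, Lhfpl3 and Tnr, summed to 0.809 to 137 CPM in cortical replicates. In hippocampus they summed to 36.2 to 58.2 CPM in CD11c-positive APP, 0 to 0.758 CPM in CD11c-negative APP and 0 to 0.552 CPM in WT replicates. Between the hippocampal gates 0 of the 4 tested passed. The 4 reactive astrocyte genes in the table, led by Vim, summed to 0 to 51.8 CPM in cortical replicates. In hippocampus they summed to 13.7 to 47.4 CPM in CD11c-positive APP, 0 in CD11c-negative APP and 0 to 0.252 CPM in WT replicates. The 1 gene tested did not pass between the hippocampal gates.

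Markers of other cells were low. Red blood cell genes had 0 counts in all hippocampal replicates and 0 to 280.3 CPM in cortical ones. Endothelial genes ranged from 5.39 to 103 CPM in hippocampus and 5.39 to 137 CPM in cortex. Cldn5, a defining gene, averaged 0 in the hippocampal groups and 0.661 to 3.43 CPM in the cortical ones. Pecam1, the highest of the list, went the other way. It averaged 7.54, 25.1 and 44.1 CPM in CD11c-positive APP, CD11c-negative APP and WT hippocampus, against 6.55, 23.7 and 10.9 CPM in cortex. Mural and fibroblast genes reached 0.839 CPM in hippocampus and 93.1 CPM in cortex. Ependymal and choroid plexus genes reached 18.4 CPM in hippocampus and 29.4 CPM in cortex. Genes of border macrophages ranged from 0 to 96.9 CPM in hippocampus and 0 to 55.7 CPM in cortex. None of these lists had a gene past the test in a gate or genotype comparison.

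Microglial genes, which check the labelled cell type, were present in all replicates. The 17 genes summed to 23900 to 37538 CPM in hippocampal replicates and 16943 to 27094 CPM in cortical ones. In APP cortex Trem2 was higher in CD11c-positive cells (log2 fold change 0.74), and P2ry12, Tmem119, Cx3cr1, Csf1r, Selplg and Gpr34 were lower, by -0.79 to -1.995. In APP hippocampus P2ry12, Tmem119, Cx3cr1 and Selplg were lower in CD11c-positive cells, by -0.90 to -2.20. Median genes per cell were 1053 to 1390 in replicates of CD11c-positive and 713 to 933 in those of CD11c-negative APP hippocampus, and 903 to 1179 in those of CD11c-positive and 570.0 to 866 in those of CD11c-negative APP cortex. Their mitochondrial shares were 1.82% to 2.52% in CD11c-positive and 0.713% to 1.22% in CD11c-negative APP cortex. The part of these values in the gate differences of the members was not tested.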

How the data were processed

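Single microglia were counted in 36 libraries of a Smart-seq2-based protocol. Per the submitters' processing notes, reads were handled with UMI-tools 0.5.3, HISAT2 2.1.0 and featureCounts 1.6.0 on GRCm38. The authors deposited unnormalized counts for every gene in every barcode. Neither the annotation, the use of strand nor the merging of reads that share a molecular identifier is stated in the sources used here. Among members' entries above 0, 26.4% equalled 1, and the 41.9% that reached 20 held 91.2% of all member counts.

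Gene symbols came from GENCODE vM21. Barcodes with under 200 genes or over 20% mitochondrial counts, 3 in all, were removed, and doublets were not called. Cells of 1 animal, region and gate were summed. One edgeR 4.0.16 quasi-likelihood model (R 4.3.3) with 6 group means and TMM factors of 0.855 to 1.15 was fitted to the 14892 genes that passed filterByExpr, with 17 residual degrees of freedom and Benjamini-Hochberg adjustment over all genes. The method was tested on simulated counts with large known changes in genes that were not sparse, and with a smaller spread than in these data. That test does not cover how well changes in sparse members are found. DESeq2 1.42.0, RLE scaling, no filter, replicates left out, the genotype tag, numbers of cells in place of counts, and sums without the top cell were the alternatives. Median depth was 19482 counts and 805 genes a cell.

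Animals were named in the titles, so the numbers pair the samples of 1 animal. Deviations from the group means of both gates of an APP cortex correlated at 0.045 to 0.080 over 6587 genes. The members and all lists were chosen with earlier results of these data known. Values of every replicate were printed for members with a mean of at least 50 CPM in a group or a call in a gate or genotype comparison, and ranges for the others.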

Additional observations from a re-analysis of the deposited data

Results flagged for a closer look

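In 3 sets of 4 replicates 1 sample lay far from the other 3, by Dixon's criterion, which chance meets in about 1 in 20 groups. Class sums and single members were searched over several groups, and the number of sets searched is not given here. These 3 sets are therefore not shown to exceed what chance would give. The 10 oligodendrocyte lineage members summed to 124 CPM in CD11c-negative APP hippocampus animal 3, against 12.1 to 17.7 CPM in the other 3 animals, with Cnp at 71.6 CPM and Mag at 46.7 CPM in that animal. The 14 astrocyte members other than Glul and Slc1a3 summed to 22.2 CPM in WT hippocampus animal 1, against 0 to 0.392 CPM in the other 3, and the 3 hippocampal cells with 6 or more members all came from that animal. Mbp was at 35.2 CPM in CD11c-negative APP cortex animal 2, against 66.5 to 71.1 CPM in the other 3.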

How the results depend on the processing

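Of 210 values of 15 log2 fold changes between gates or genotypes under alternatives, 185 kept their direction and side of the threshold, 16 passed it newly, 7 lost it and 2 reversed: Slc1a2 between APP and WT cortex was 1.34 by the genotype tag and -0.94 to 0.54 with 1 replicate left out, positive without WT animal 2. Genes called under DESeq2 numbered 616 and 532 between the gates of cortex and hippocampus, 245 and 1072 between genotypes, 1601, 1167 and 652 between regions (WT, CD11c-negative APP, CD11c-positive APP), and 246 and 798 in the interactions of gate and genotype with region. Members called by DESeq2 were 1 and 2 between gates, 0 and 1 between genotypes, and 0 and 1 in the interactions. By numbers of cells with a count, scaled to the sum of genes found over all cells of a replicate, genes called out of 4175 were 1331, 975, 1, 669, 112, 515, 151, 10 and 388 in the same order as the genes called under DESeq2. Of 14 members tested by numbers of cells, 3 and 2 were called between gates, 0 and 1 between genotypes, and 0 and 0 in the interactions. Glul was called lower there in CD11c-positive against CD11c-negative APP cortex (-0.54) and in APP against WT hippocampus (-0.53). Its unscaled share of cells was higher in both of these comparisons. It was also called between the gates of APP hippocampus, where the share was 58.3% in CD11c-positive and 59.9% in CD11c-negative cells. Without the filter, genes called were 1 between genotypes in cortex, 78 between regions in CD11c-positive APP and 2 in the gate interaction, and members called were 1 between gates in hippocampus and 1 in the genotype interaction. The genotype tag gave 0 genes and 0 members in hippocampus. In fits of 2 groups with the animal as a replicate block, 3 members and 271 genes were called between the gates of cortex, and 0 genes between regions in WT and in CD11c-negative APP mice; without the block these were 2 members and 434 genes, 0 and 234. In the genotype interaction, fitted on the 4 CD11c-negative groups as an alternative chosen after seeing the data, 90 genes and 0 members were called with the block and 113 and 0 without. Hippocampal gates, and the regions of CD11c-positive mice, share 1 animal, and APP and WT mice none, so no block was fitted there or in the gate interaction. The cause of these changes was not tested.

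With 1 replicate left out, genes called ranged from 115 to 145 (gate, cortex), 30.0 to 59 (gate, hippocampus), 0 to 0 and 169 to 259 (genotype), 96 to 324, 183 to 315 and 7 to 30.0 (region), 0 to 0 and 118 to 174 (interactions), and members called, not counted between regions, from 0 to 0, 0 to 1, 0 to 0, 0 to 1, 0 to 0 and 0 to 1. Between gates 1 member was called without CD11c-negative hippocampus animal 3, and in the genotype interaction without WT hippocampus animal 2.

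Depth limits members at 0 in hippocampus, where 3 counts over a group are 0.293 to 0.330 CPM. With 3 or 4 replicates and a common biological coefficient of variation of 1.37, differences that missed the threshold are not shown to be absent.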

Other observations

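WT hippocampus animal 2 had 0 counts of all 27 members other than Glul and Slc1a3 in 74 cells, while it had 415 CPM of Slc1a3 and 863 CPM of Glul. In hippocampal cells with 1 to 2 members the summed level of the 13 neuronal genes was 97.2 CPM, against 77.2 CPM in cells with 0 members. The groups differed in direction. The level was lower with 1 to 2 members in CD11c-positive APP (56.7 against 121.6 CPM) and WT hippocampus (8.2 against 60.1 CPM). It was higher in CD11c-negative APP hippocampus (204.7 against 59.3 CPM), where only animal 3 was higher (283.6 against 8.4 CPM). In cortical cells with 1 to 2 and with 0 members the neuronal levels were 680 CPM and 540 CPM, and 1814 CPM in cells with 3 to 5 members.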
